A study of Mus musculus with 19 samples.

Results

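Cytosolic ribosomal protein genes were followed through 3 comparisons of mouse retina in which Pou3f1, a transcription factor of the POU family, was added or removed. Members were the genes whose symbol starts with Rpl or Rps and goes on with a number (with or without a, x or l), with p and a number, or with a. They numbered 83 of the 35734 genes listed in any table. The 48 h table listed 81 of them, 83 were in each of the others, and an adjusted p was given for 78 at 48 h, 80 at 14 days and, in the E17.5 table, 79. The pattern gave 76 genes of the standard ribosome, 46 for the large subunit and 30 for the small, and 7 names ending in l (Rpl3l, Rpl6l, Rpl10l, Rpl32l, Rpl39l, Rps4l and Rps27l). It leaves out genes that encode ribosomal proteins under other names, such as Rps3a1, Fau and Rack1.

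The series holds 19 RNA-seq libraries in 6 groups. Wild-type CD1 mice were electroporated in the eye at postnatal day 1 with plasmid at 3 µg/µl, and GFP-positive cells were sorted after 48 h (3 libraries labelled Gfp, 3 labelled Pou3F1) or 14 days (4 Gfp, 5 Pou3F1). Cells of several sorts were pooled to about 150000 per replicate. The protocol text places the later collection at postnatal day 14, and the label of 14 days after transfection is used here. Whole retinas of C57B6J mice at E17.5 were heterozygous (2 libraries) or homozygous (2 libraries) for a Pou3f1 knockout, so the controls of that comparison also lack 1 functional copy. What the sources do not name is the plasmid's promoter and the structure of the knockout allele.

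The deposited tables hold 1 line per gene with the authors' log2 fold change and adjusted p, and no values per library. The depth of each library, the spread between libraries and the overlap of the groups are therefore unknown here, and each p measures the spread between pooled or single samples as the authors fitted it. Every fold change, SE, mean count and adjusted p given below for 1 gene comes from the authors' deposited table of that comparison. The 48 h and 14 day tables also give an SE and a mean normalized count, while the E17.5 table gives neither. In the authors' deposited tables Pou3f1 was higher by 0.91 ± 0.26 on the log2 scale (SE) at 48 h and by 5.57 ± 0.27 at 14 days, and changed by -0.69 at E17.5 (DESeq2 adjusted p = 1.98e-08). The 48 h rise was only 1.87-fold (DESeq2 adjusted p = 0.0233) at a mean count of 37278.7, against 47.6-fold at 16971.5 at 14 days. Why the contrast in Pou3f1 was weaker at 48 h was not tested, and it limits what the 48 h comparison can show. A positive value is accordingly read as higher in Pou3f1 cells, or higher in the knockout. The tissue's defining genes were present: the 10 rod markers had a summed mean count of 2418010 at 14 days, the 8 progenitor markers 79807 at 48 h, and 10 of 10 ganglion cell markers had an adjusted p at E17.5. In bulk RNA, fewer cells of a type and less RNA per cell cannot be told apart.

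The cytosolic ribosome reads mRNA into protein. Its large subunit forms peptide bonds and holds the exit tunnel, and its small subunit binds the mRNA and decodes it. The proteins are needed in nearly equal numbers, and their genes are among the most highly expressed in most cells. In vertebrates their transcripts start with a run of pyrimidines, the terminal oligopyrimidine or TOP motif, through which TOR signalling and La-related proteins adjust their translation and stability. Most of these genes have left many processed pseudogenes in the genome.

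The starts of 6 members from the results below are shown as examples. Rpl7a, Rpl28 and Rps26 were higher at 14 days, Rps24 and Rps25 were among the higher genes at E17.5, and Rps2 had the lowest value there. Each is the RefSeq sequence of GRCm38.p6 from 35 bases before the annotated start to 15 after it, read 5′ to 3′ on the gene's strand, with the longest run of C or T within 25 bases of the start in capitals. They lie at chr2:26910772-26910821 (plus strand), chr7:4792930-4792979 (plus), chr10:128626492-128626541 (minus), chr14:24490643-24490692 (plus), chr9:44407679-44407728 (plus) and chr17:24720028-24720077 (plus), in the order given.
Rpl7a: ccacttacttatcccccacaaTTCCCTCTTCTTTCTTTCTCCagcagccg
Rpl28: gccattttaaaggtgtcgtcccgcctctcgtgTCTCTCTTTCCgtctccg
Rps26: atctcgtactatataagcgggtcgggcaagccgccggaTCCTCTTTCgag
Rps24: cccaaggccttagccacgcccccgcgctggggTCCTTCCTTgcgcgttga
Rps25: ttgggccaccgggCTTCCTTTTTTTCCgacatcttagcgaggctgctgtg
Rps2: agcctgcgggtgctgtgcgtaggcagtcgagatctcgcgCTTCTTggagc

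The run spanned 21 bases in Rpl7a, 14 in Rps25, 11 in Rpl28, 9 in Rps26 and in Rps24, and 6 in Rps2. Another start of Rps24 had a run of 7. Some higher genes that are not shown had short runs, with 4 bases in Rps4x, called at 14 days. At E17.5 such genes were Rpl9 with 4 and Rps23 with 6, so the 6 starts do not stand for all higher genes. RefSeq starts were matched for 61 members, with 73 starts in all. A run of at least 8 C or T within 25 bases of the start, on the coding strand, was found at 34 of those 73 (46.6%) against 19.7% of all 32851 starts. The share was 51.1% of the large subunit starts and 39.3% of the small. The heptamer ACTTCCG, the core bound by ETS factors, was present on either strand in 30.1% of member promoters (250 bases before to 50 after the start) and in 6.42% of all promoters of that length. The POU octamer ATGCAAAT was found on either strand in 0 of the 73 member promoters and in 1.74% of all. Of the 56 standard genes with a matched start, the 30 with a run had a median log2 fold change of 0.19 at 48 h, against 0.25 for the 26 without one. At 14 days these medians were 0.09 and 0.04, and at E17.5 they were 0.31 and 0.34. These matches describe letters in a window and no binding was measured.

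Levels were high and uneven. Members took 2.74% of the summed mean normalized count at 48 h (1.66% large, 1.09% small) and 0.973% at 14 days (0.612% and 0.361%). The 2 tables were normalized separately, so these shares are set side by side without a test. Per kilobase of transcript, the 76 standard genes had a median mean count of 7277 at 48 h and 6288 at 14 days, against 42.9 and 57.6 over all genes. Large and small subunit genes had medians of 6907 and 8021 per kilobase at 48 h, and of 6433 and 6049 at 14 days. Of the 76, 74 had a mean count of at least 1000 in each table. By count alone, Rpl4 with 18113, Rplp0 with 16537 and Rpsa with 12897 led at 48 h. Rpl4 lines the exit tunnel, Rplp0 carries the stalk that recruits elongation factors, and Rpsa sits at the small subunit's mRNA exit. Per kilobase the order was another one, with Rps24 at 17362 and Rpl23a at 16122 among the highest at 48 h, and with Rps15 at 12793 and Rps24 at 12623 at 14 days. The lowest standard genes per kilobase were Rps27 (124 at 48 h, 485 at 14 days) and Rpl12 (338 and 275).

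Both low values go with near-identical copies that were listed as genes of their own. Rps27 had a mean count of 42.8 at 48 h and 167 at 14 days, while Rps27rt, a coding retrocopy with 100% identity to its transcript, had 3801 and 2458. Rpl12 had 420 at 48 h against 5485 for Gm10275, and Rpl5 had 1327 against 10526 for Gm15500. Rpl10 had 1352 against 6208 for Rpl10-ps3. A search of the annotation found 1905 copies of members that were 80% or more identical over 50% or more of their length. For 26 members a copy with at least 95% identity held at least 10% of the member's own mean count. Among 30 standard genes with a near-identical copy of a mean count of at least 100 at 48 h, the copy was counted above the gene itself in 10. Reads of such pairs cannot be assigned with certainty, so the values of these 26 members are uncertain and are also left out below.

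**Figure D1:**
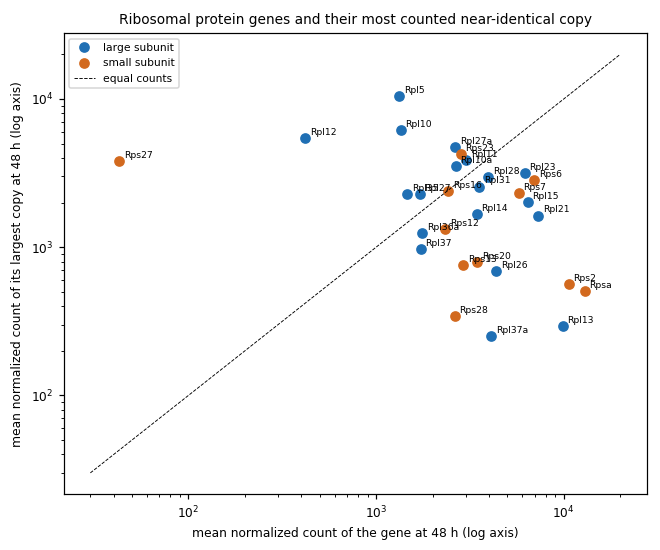
Mean normalized count at 48 h of each ribosomal protein gene (x axis, log scale) and of its most counted near-identical copy (y axis, log scale), for the 30 standard genes whose copy had a mean count of at least 100. Points above the dashed line of equal counts are the 10 genes, among them Rps27, Rpl12, Rpl5 and Rpl10, whose copy was counted above the gene.

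At 48 h after electroporation no member passed the authors' threshold, although nearly all values were above 0. By DESeq2, 0 of 78 members were higher and 0 lower at an adjusted p under 0.05, against 1.48% of all 14714 genes higher and 1.56% lower. Unadjusted p-values under 0.05 were found for 16 members, all higher, against 6.29% of all genes higher and 8.46% lower. Of the 78, 76 had a fold change above 0, against 49.1% of all genes and 74.9% of other coding genes with transcripts under 800 bases. The median of those short genes was 0.13. They were taken by length alone, so mitochondrially encoded mRNAs such as mt-Co3 and coding copies of members were not taken out. The members' median was 0.21 on the log2 scale, 0.19 for the 46 large subunit genes and 0.21 for the 32 small ones, beside -0.01 over all genes. After removal of the trend with transcript length and GC content over all genes, the members' median was 0.13. The SE of a single member had a median of 0.17.

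The largest value at 48 h was 0.51 ± 0.20 (SE) for Rps12, followed by Rpl5 at 0.50 ± 0.19, Rpl35 at 0.48 ± 0.19 and Rpl39 at 0.47 ± 0.17. Rpl5 belongs to the 5S particle that also binds the p53 regulator Mdm2, and Rpl39 lines the exit tunnel. Rpl39 had the smallest DESeq2 adjusted p of any member, 0.126. Rps24 (0.47 ± 0.20), Rpl34 (0.47 ± 0.19) and the paralog Rps27l (0.46 ± 0.19) came next, all with an adjusted p of at least 0.179. At the other end, the pseudogene Rps4l had -0.12 ± 0.17, Rps2 had -0.04 ± 0.14 and Rpl10a had 0.05 ± 0.15. The 3 genes with the highest counts had small values, at 0.08 ± 0.14 for Rpl4, 0.09 ± 0.17 for Rplp0 and 0.13 ± 0.19 for Rpsa. Across the 76 standard genes the fold change at 48 h ran against the mean count (Pearson r = -0.48, Spearman rho = -0.53) and against the GC content of the transcript (r = -0.42, rho = -0.43). These are descriptions across genes of 1 fit, which share libraries and normalization.

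After 14 days 5 of 80 members were higher in Pou3f1 cells and 0 lower, against 11.5% of 17789 genes higher and 9.21% lower. The members' share, 6.25%, lay below that of all genes. Rps26, which lines the mRNA exit channel, was higher by 0.32 ± 0.08 (SE; DESeq2 adjusted p = 0.000573). Rpl23a, which rims the exit tunnel, was higher by 0.21 ± 0.07 (adjusted p = 0.0176) and Rpl28 by 0.24 ± 0.08 (adjusted p = 0.0236). Rpl7a was higher by 0.21 ± 0.08 (adjusted p = 0.044) and Rps4x, the X-linked small subunit gene, by 0.21 ± 0.08 (adjusted p = 0.0451). All 5 differences were modest, from 1.15-fold to 1.25-fold. Rpl28 is one of the 26 genes with a large copy, and Rpl28-ps1 had 0.15 (adjusted p = 0.0819).

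The other members spread on both sides of 0 at 14 days. Of the 80, 56 had a value above 0 against 47.8% of all genes, and 13 had an unadjusted p under 0.05, all higher, against 16.9% of all genes higher and 15.6% lower. The median was 0.05, with 0.08 for 48 large subunit genes and 0.01 for 32 small ones, beside -0.01 over all genes. Rpl3l, a paralog known from muscle, had the highest value, 0.59 ± 0.28 at a mean count of 39.6 (adjusted p = 0.114). The lowest values were -0.29 ± 0.28 for the pseudogene Rpl32l, -0.23 ± 0.14 for Rpl9 and -0.15 ± 0.10 for Rps27a, which is made as a fusion with ubiquitin. Rps25 at -0.11 ± 0.09 and Rps24 at -0.10 ± 0.08 followed. None of these passed the threshold. Rps2, the lowest standard gene at 48 h, had 0.21 ± 0.09 (adjusted p = 0.0918). Its near-identical copy Rps2-ps10 was lower, at -0.65 ± 0.21 (DESeq2 adjusted p = 0.013).

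**Figure D2:**
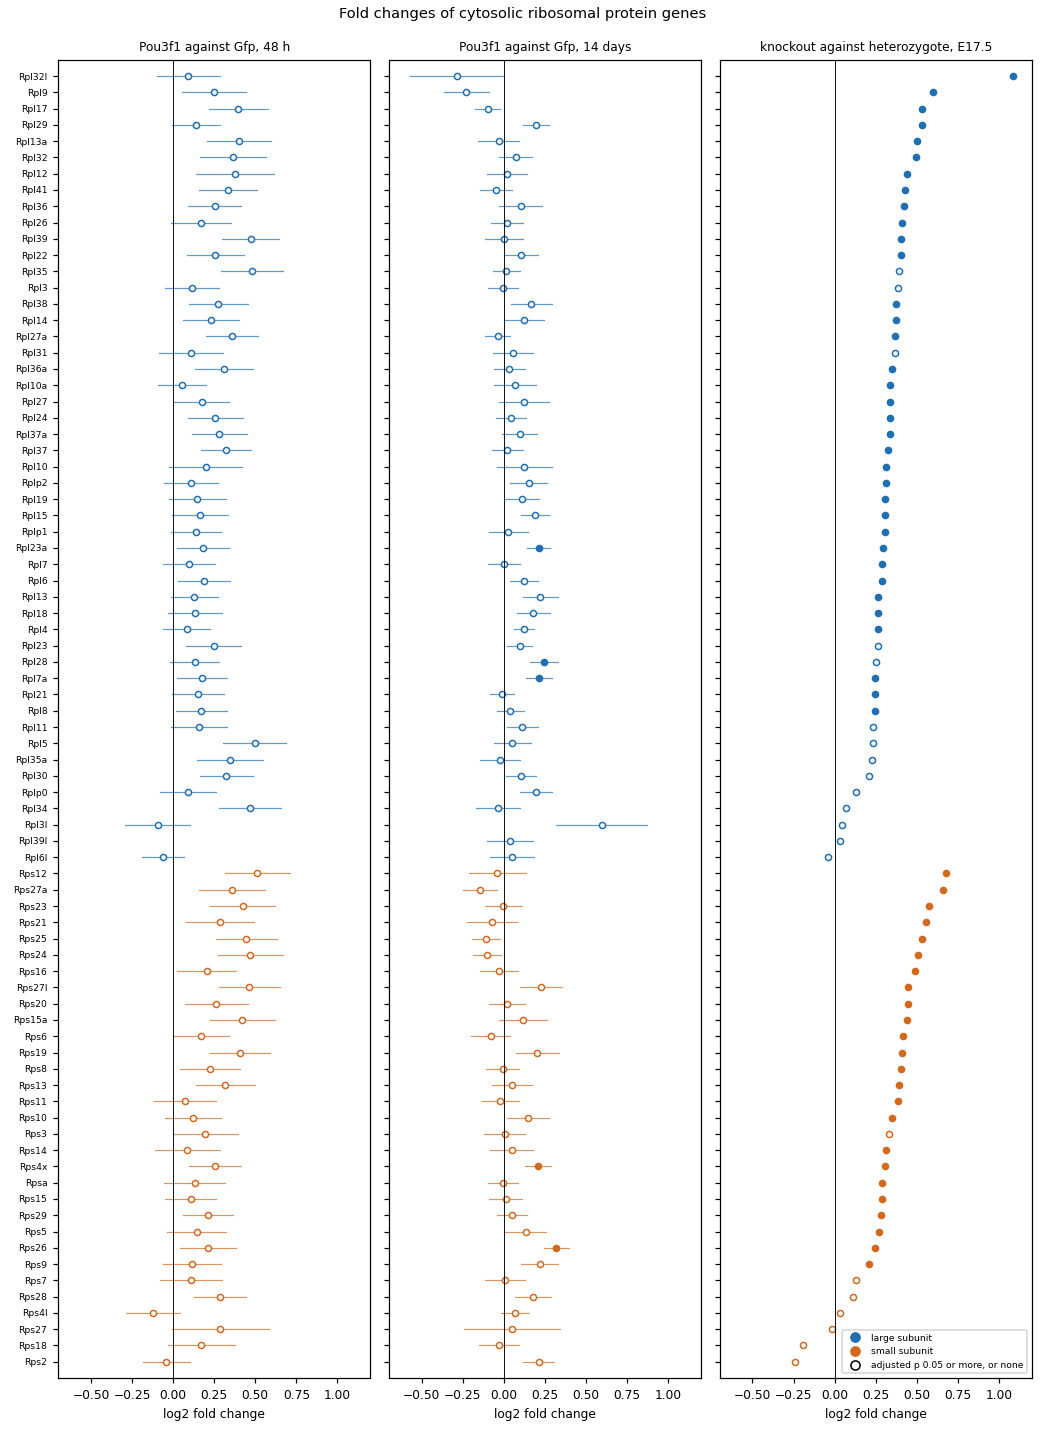
Log2 fold change of 80 members, by subunit and ordered by the value at E17.5, in the 3 comparisons, with the authors' SE as bars in the first 2 panels (the E17.5 table gives none). Filled points passed an adjusted p under 0.05, which holds for 0, 5 and 59 of the plotted genes from left to right.

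The fold changes at 14 days and at 48 h were set against each other gene by gene with a two-sided z test of their difference, adjusted by Benjamini-Hochberg over 14565 genes. Of 78 members, 61 had a lower fold change at 14 days than at 48 h, against 46.9% of all genes. No member passed the adjusted threshold in either direction, against 4.5% of all genes higher and 1.66% lower. With no adjustment of the z test's p, 11 members were lower and 0 higher at 0.05, against 7.09% and 12.1% of all genes. The median difference was -0.15, with -0.13 for the large subunit and -0.20 for the small, beside 0.03 over all genes. The smallest adjusted p, 0.0841, belonged to Rps25 with a difference of -0.55 ± 0.21. Rps24 differed by -0.57 ± 0.22 (z test, adjusted p = 0.0914) and Rpl17 by -0.50 ± 0.19 (adjusted p = 0.108). Rpl35 (-0.47 ± 0.21) and Rpl27a (-0.40 ± 0.18) had adjusted p-values of 0.168 and 0.169. A difference between the times was thus not shown for any single member. No source says whether the fold changes were pulled towards 0 in the fit. At 14 days Rpl10l had an SE of only 0.10 at a mean count of 0.117. If each fit did so by its own amount, the 2 sets of fold changes are not on 1 scale. The z test takes them as they stand, and this was not tested.

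In the E17.5 retina, most ribosomal protein genes were higher in the knockout, by less than 2-fold in all but 1. Of 79 members, 61 were higher and 0 lower, against 4.7% of 14821 genes higher and 5.34% lower. They comprised 36 of 47 large subunit genes and 25 of 32 small subunit genes. The median was 0.33 on the log2 scale, or 1.26-fold, with 0.32 for the large subunit and 0.36 for the small, beside a median of 0.00 over all genes. Of the 79, 76 had a value above 0, against 50.8% of all genes. At an unadjusted p under 0.05, 70 were higher and 1 was lower, against 10.5% and 10.7% of all genes. The middle 50% of members lay between 0.26 and 0.42. After removal of the trend with transcript length and GC content over all genes, 32 were higher and 1 lower, with a median of 0.23. In the same comparison 9 of 13 mitochondrially encoded mRNAs and 5 of 8 lens markers were higher, and their part in the members' values was not tested.

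Among the small subunit genes, Rps12 rose by 0.68 (DESeq2 adjusted p = 2.31e-07) and Rps27a by 0.66 (adjusted p = 1.45e-09). Rps23, a decoding-site protein, rose by 0.57 (adjusted p = 1.35e-10) and Rps21 by 0.56. Rps25 and Rps24 rose by 0.53 and 0.51. Rps24 is among the genes mutated in Diamond-Blackfan anaemia, a failure of red cell production, and 6 of the 10 genes of that list were higher (60.0%, against 77.2% of all members). In the large subunit the largest rise of a standard gene was that of Rpl9, by 0.60 (adjusted p = 2.31e-07). Rpl17, at the exit tunnel, rose by 0.53 (adjusted p = 9.11e-09), Rpl29 by 0.53 and Rpl13a by 0.50. Rpl13a is also known as a part of the complex that silences inflammatory transcripts. Of the 9 exit tunnel genes 7 were higher (77.8%), and of the 8 genes of the mRNA path 5 were (62.5%), beside the same 77.2%.

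No counts are given for E17.5, so genes were ranked by their counts at 48 h. The highest of them, Rpl4, Rpsa and Rplp0, lay below the members' E17.5 median of 0.33. Across the 76 standard genes the E17.5 fold change ran only weakly against the 48 h mean count (r = -0.21, rho = -0.24). Rpl4 rose by 0.26 (adjusted p = 6.29e-05) and Rpsa by 0.29 (adjusted p = 0.005), while Rplp0 had 0.13 (adjusted p = 0.629). The acidic stalk proteins Rplp1 and Rplp2, which dock to Rplp0, rose by 0.30 and 0.31. Rps27a, made as a fusion with ubiquitin, is described above, and Fau, made as a fusion with a ubiquitin-like protein, rose by 0.29. Rps3a1 (0.36) and Rack1 (0.28), a scaffold for kinases on the small subunit, were higher as well. In the 5S particle neither gene passed, with 0.23 for Rpl5 (adjusted p = 0.0824) and 0.24 for Rpl11 (adjusted p = 0.132).

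Names ending in l did not move alike at E17.5. The processed pseudogene Rpl32l had the largest value of any member, 1.09 (adjusted p = 6.78e-11), at mean counts of only 3.94 and 3.96 in the 2 overexpression tables. Rps27l, a p53-responsive paralog of Rps27, rose by 0.45 (adjusted p = 0.00166). Rps4l had 0.03 (adjusted p = 0.925). Rpl3l (0.04), Rpl39l (0.03) and Rpl6l (-0.04) had no adjusted p, and Rpl10l had no fold change.

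The 18 members that did not pass at E17.5 included the only 3 of the 79 with a value below 0. These were Rps2 at -0.24 (adjusted p = 0.12), Rps18 at -0.19 (adjusted p = 0.434) and Rps27 at -0.01 (adjusted p = 0.976). Rpl34 had 0.07 (adjusted p = 0.882) and Rps28 had 0.11. Near the threshold, Rpl39 (0.0479) and Rpl21 (0.0465) lay just inside by adjusted p, and Rpl31 (0.0641) and Rpl35 (0.0653) just outside.

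For 9 of those 18 a near-identical copy was itself higher. Rps27rt rose by 0.53 (adjusted p = 1.2e-08) beside -0.01 for Rps27. Gm15500 rose by 0.46 (adjusted p = 0.000226) beside 0.23 for Rpl5, and Gm6472 by 0.65 (adjusted p = 0.000116) beside 0.13 for Rps7. Rpl31-ps8, Gm2000 and Rpl28-ps1 rose by 0.46, 0.44 and 0.25, next to Rpl31, Rpl35 and Rpl28 at 0.37, 0.39 and 0.25. For Rps2 and Rps18 no listed copy passed. The copy Rps2-ps10 nonetheless went the other way from Rps2, at 0.45 (DESeq2 adjusted p = 0.0817) beside -0.24. Counting a member as higher when it or such a copy passed gave 70 of 79, by a rule chosen after the values were seen that gives genes with copies more chances. Without the 26 members that have a large copy, 44 of 53 were higher and the median was 0.31. Of 73 pseudogene copies with an adjusted p, 17 were higher (23.3%) and 0 lower. The share higher was 4.7% of all genes, 8.44% of other pseudogenes and 20.3% of other coding genes with transcripts under 800 bases. Reads of copies and members cannot be told apart with certainty, so the copies are no separate evidence.

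**Figure D3:**
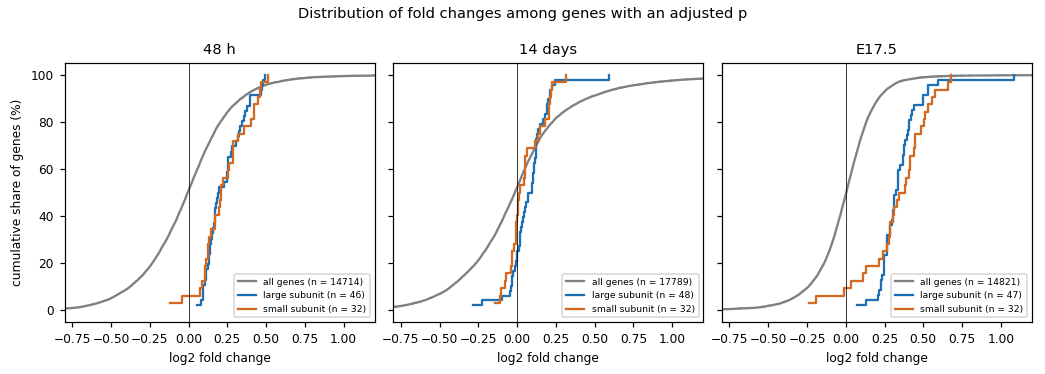
Cumulative share of genes (y axis, percent) by log2 fold change (x axis) for all genes with an adjusted p and for large and small subunit members in each comparison. The member curves lie to the right of all genes at 48 h and E17.5 (medians 0.21 and 0.33) and near them at 14 days (0.05), and the curves of the 2 subunits run close together.

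Large and small subunits were compared by their medians. The large subunit minus the small was -0.02 at 48 h and 0.07 at 14 days, and it was -0.04 in the knockout comparison. At 14 days 37 of 48 large subunit genes were above 0 and 19 of 32 small ones. The share called at E17.5 was 76.6% of large and 78.1% of small subunit genes. Genes are not replicates, so the subunits were not tested against each other and these medians are a description.

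Gene by gene, the order of members recurred in part between comparisons that share no libraries by their labels. Of the 76 standard genes, 73 were above 0 both at 48 h and at E17.5, and 51 in all 3 comparisons. A further 22, 10 of the large and 12 of the small subunit, were above 0 at 48 h and E17.5 and below 0 at 14 days. Over the 76, fold changes at 48 h and E17.5 ran together (r = 0.43, rho = 0.42), those at 48 h and 14 days ran against each other (r = -0.39, rho = -0.36), as did those at 14 days and E17.5 (r = -0.43, rho = -0.47). Over the other genes the same 3 pairs gave r = 0.23, 0.17 and -0.06. Members share GC content and length across the comparisons, and GC ran with the fold change at 14 days (r = 0.30) and against it at 48 h (r = -0.42) and E17.5 (r = -0.21).

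**Figure D4:**
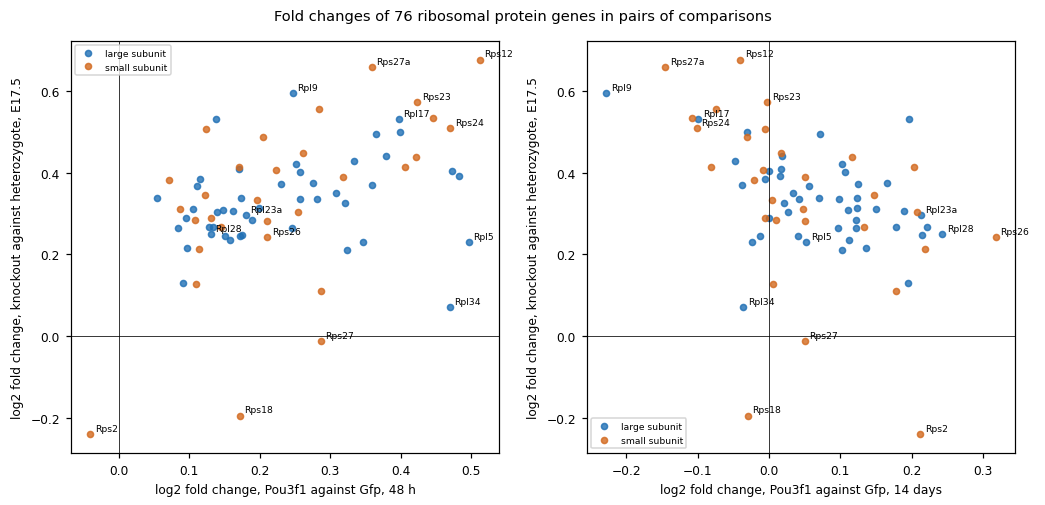
Log2 fold changes of the 76 standard genes at 48 h (left, x axis) and 14 days (right, x axis) against those at E17.5 (y axis), large subunit in blue and small in orange. Rps12, Rps27a and Rps24 lie high on the y axis, to the right of 0 in the left panel and to the left of 0 in the right panel, while Rps2 lies below 0 on the y axis.

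In the rest of the translation machinery, genes called at E17.5 were mostly higher, and their shares are read against 4.7% of all genes and 20.3% of other short coding genes higher. Of 18 TOP genes outside the ribosome 12 were higher (66.7%), with a median of 0.25. They included the elongation factor subunit Eef1b2 (0.45), the nucleolar chaperone Npm1 (0.33), and Naca (0.37) and Btf3 (0.33), which form the complex that meets nascent chains at the exit tunnel. Of 12 elongation and termination genes 5 were higher (41.7%, median 0.21), and of 35 initiation genes 5 were higher (14.3%) and 1 lower (median 0.13), the lower one being Eif3j1 at -0.44. Ribosome biogenesis gave 10 higher of 56 (17.9%, median 0.12), led by Pno1 at 0.43, and rRNA synthesis 2 of 19 (10.5%, median 0.16). For TOR signalling 0 of 20 passed in DESeq2, with 1 gene in each direction at an unadjusted p under 0.05. The 78 mitochondrial ribosomal protein genes, which serve the ribosome inside mitochondria, gave 15 higher (19.2%) and 0 lower with a median of 0.18. Initiation, biogenesis, rRNA synthesis and mitochondrial ribosomal proteins lay above the share of all genes and below that of other short coding genes. These lists were not chosen by transcript length, so the short genes are not a matched reference for them. Mitochondrially encoded mRNAs and coding copies of members were also not taken out of the short genes.

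At 48 h none of these translation lists held a called gene by DESeq2, with 0 to 4 genes a list higher and 0 to 2 lower where p was not adjusted. At 14 days, when 11.5% of all genes were higher and 9.21% lower, biogenesis gave 9 higher (16.1%) and 1 lower of 56, with a median of 0.14. Mybbp1a (0.27), Grwd1 (0.46) and the rRNA methyltransferase Fbl (0.28) were higher and Rrp1b (-0.60) lower. Initiation gave 4 higher (11.4%) and 1 lower of 35, and TOR signalling 4 higher and 3 lower of 20. Synthesis of rRNA gave 3 higher (15.8%) and 1 lower of 19, with Mycn, a driver of ribosome production, 2.01-fold higher and Taf1d at -0.24. Among TOP genes outside the ribosome 1 of 18 was higher, among mitochondrial ribosomal proteins 3 were higher and 1 lower of 78, and of 12 elongation and termination genes 0 were called by DESeq2, with 6 higher where p was not adjusted.

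**Figure D5:**
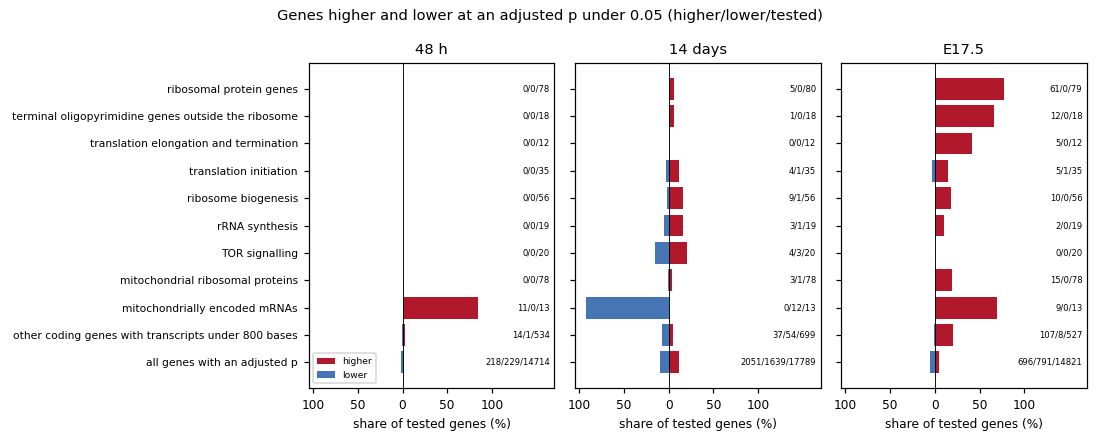
Share of tested genes (x axis, percent) higher (red, to the right) or lower (blue, to the left) at an adjusted p under 0.05, for members and other gene lists in each comparison, with the numbers higher, lower and tested at the right. At E17.5 members reach 61 of 79 and TOP genes outside the ribosome 12 of 18, against 696 of 14821 genes.

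Other features moved with the members. Transcript length ran against the fold change of all genes at E17.5 (rho = -0.31) and at 48 h (rho = -0.22), while at 14 days the relation was near 0 and positive (rho = 0.04). Members are short, with a median length of 773 bases for the 76, and of 527 other coding genes with transcripts under 800 bases 20.3% were higher at E17.5. That share was 2.62% at 48 h and 5.29% at 14 days. Short mitochondrially encoded mRNAs and coding copies of members were not taken out of these other genes. With the trend removed as above, 2.96% of all genes were higher at E17.5, and the 1 member lower was Rps2. The 32 higher members were 16 large and 16 small subunit genes, and all of them had passed without the correction.

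The 13 mitochondrially encoded mRNAs moved in all 3 comparisons, with 11 higher at 48 h (median 0.81), 12 lower at 14 days (median -0.44) and 9 higher at E17.5 (median 0.61). Over all genes, 1.48% were higher and 1.56% lower at 48 h, 11.5% and 9.21% at 14 days, and 4.7% and 5.34% at E17.5. Of 11 lists of cell markers, those called at 48 h were 1 of 7 blood vessel markers, lower, and 1 of 5 pigment epithelium markers, higher. The other 9 lists had no call by DESeq2 at 48 h, with unadjusted p-values under 0.05 for 2 of 3 rod, 2 of 5 bipolar, 1 of 7 amacrine, 3 of 6 Müller glia and 1 of 8 progenitor markers, all lower, and for 1 progenitor marker that was higher. The unadjusted shares over all genes at 48 h were 8.46% lower and 6.29% higher. At 14 days all 9 microglia markers (median 1.68), 4 of 8 progenitor, 3 of 10 ganglion cell, 2 of 7 amacrine and 1 of 8 bipolar markers were higher. In that comparison 8 of 10 rod, 4 of 7 Müller glia and 3 of 8 blood vessel markers were lower, and lens and red blood cell markers had 1 call in each direction. At E17.5, 5 of 8 lens markers (median 0.56), 1 of 10 ganglion cell and 1 of 8 progenitor markers were higher. Lower there were 6 of 7 amacrine (median -0.87), 2 of 8 progenitor, 2 of 8 blood vessel, 1 of 4 bipolar, 1 of 7 Müller glia and 1 of 5 pigment epithelium markers. The part of length, mitochondrial mRNA and cell makeup in the members' values was not tested beyond the length and GC correction.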

How the data were processed

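The submitters' processing notes name Salmon, DESeq2 and MACS2 and the mm10 build. No source used here gives their versions, the annotation or the design formula, or says whether fold changes were pulled towards 0. The authors deposited log2 fold changes, p-values and adjusted p-values in all 3 tables, and SE, Wald scores and a signal, the mean of normalized counts over the libraries, in the overexpression tables. As checked on the values, the Wald score is the fold change over its SE, and Benjamini-Hochberg adjustment over the genes with an adjusted p returned the listed values within 5.60e-06.

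Calls used the authors' adjusted p under 0.05. Members and gene lists were chosen with earlier results of these data known. Named were called members (up to 10 a subunit and direction), the 3 largest and 3 smallest fold changes a subunit, the 3 highest counts, names ending in l, stalk, 5S particle and ubiquitin fusion members, and up to 4 called genes of each other list. Not every such gene is printed or plotted, and some genes are not reported here by name. The copies, Rps28 and the genes near the threshold were added after their values were seen.

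The E17.5 file name puts the heterozygote first and gives another embryonic day than the labels, so the direction was set by Pou3f1. The z test (SciPy 1.17.1) and the length part of the length and GC correction (20 bins each) were tested on simulated data. The GC part was not. Lengths and GC came from GENCODE release M21, which held 99.2% to 99.6% of identifiers, and copies from BLAST 2.17.0.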

Additional observations from a re-analysis of the deposited data

How the results depend on the processing

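Of the values recomputed under other settings, 83 stayed close to the reported one (counts within 1.5 times, other values within the spread) and 5 moved. Many of the 83 were counts of 0 that stayed 0, such as the calls at 48 h, so the tally says little about stability. The moved values were counts, apart from the E17.5 median, which stayed above 0. At 14 days the members called higher fell from 5 to 1 (Rps26) at an adjusted p under 0.01, and to 3 when p-values were adjusted over all genes with a p. At E17.5, removal of the length and GC trend left 32 higher and 1 lower with a median of 0.228. An SE for E17.5 had to be taken from the fold change and p. Other settings on the members alone gave 44 to 59 higher at E17.5; the lowest, 44, leaves out the members with a large copy, a setting added after seeing the data. No paired analysis was possible because the tables hold no values per library, and leaving out each replicate was not run for that reason. A filter on mean counts could not be applied at E17.5, whose table has none. Depth per library is unknown, so the precision rests on the authors' SE.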
